A study of Mus musculus with 106 samples.

Results

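The tumour necrosis factor (TNF) ligand and receptor superfamilies were read at their gene promoters in every peak list of a mouse ChIP-seq study of diabetes. The members were the protein-coding genes whose symbol begins with Tnfsf or Tnfrsf, together with Lta, Ltb, Ltbr, Cd27, Cd70, Fas, Fasl, Eda, Edar, Eda2r, Ngfr and Relt. This gave 44 genes of 21938 in the mouse annotation, 17 ligands and 27 receptors. Ligands of this superfamily are mostly trimeric type II membrane proteins that can be shed, and each binds receptors with cysteine-rich repeats on the same or a neighbouring cell. Many receptors carry a death domain, as Fas and Tnfrsf1a do, or bind TRAF adaptors and signal through NF-κB, MAP kinases or caspases, while decoy receptors bind ligand without signalling. In bone marrow and macrophages the superfamily is known for osteoclast formation (Tnfsf11, RANKL, and its receptor Tnfrsf11a, RANK), B cell survival (Tnfsf13b, BAFF), lymphoid organ formation (Ltb and Ltbr) and inflammation (Tnfrsf1a and Tnfrsf1b, the TNF receptors).

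The study mapped acetylated lysine 27 of histone H3 (H3K27ac), a mark of active promoters and enhancers, and trimethylated lysine 4 (H3K4me3), a mark of promoters. All animals were wild-type C57BL/6J mice, 12 to 14 weeks old when assigned to the control or diabetic group. Diabetic mice had received streptozotocin (STZ), which kills pancreatic beta cells, at 42 to 45 mg per kg per day into the peritoneum on 5 consecutive days, and tissue was taken 6 weeks after the last injection from mice with blood glucose over 13.9 mmol/L. The control mice were the non-diabetic group. The cells named HSC were bone marrow depleted of lineage-positive cells, so they were a mixed progenitor population and not purified stem cells. Bone marrow-derived macrophages (BMDM) were differentiated for 7 days in medium with 5 mmol/L glucose, whatever the animal's disease state, and then kept in medium alone (unstimulated) or exposed for 16 h to lipopolysaccharide (LPS, a bacterial cell wall component; 100 ng/mL) and interferon-γ (IFN-γ; 10 ng/mL). For each mark there were 6 control and 6 diabetic HSC libraries, 6 control and 5 diabetic unstimulated BMDM libraries, and 6 control and 6 diabetic LPS+IFN-γ BMDM libraries. The 70 lists held 13730 to 277213 peaks, and the 36 input samples came with no list used here.

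A promoter was taken as 1000 bp either side of any annotated start site, and a gene was occupied in a list where a peak touched that window. The level of a gene was the percentile, from 0 to 100 over all genes in the list, of the −log10 p of its strongest promoter peak, so it is a rank within a library and not an amount of histone mark. Genes with no promoter peak share 1 low percentile in each list, between 10.3 and 29.6. A value at that floor means that no promoter peak was listed. Differences between groups are given in percentile points with their standard error, from limma fitted over all genes of a mark, and a gene was called where its Benjamini-Hochberg adjusted p was under 0.05.

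Some properties of the libraries bear on the results. The shortest list, H3K4me3 in diabetic HSC replicate 6, held 13730 peaks and occupied 6 of the 44 members, against a group median of 35. A set of 3 H3K27ac libraries of control BMDM stood apart from their labels. Genes called higher (223) and lower (268) with LPS+IFN-γ in diabetic BMDM were used as a yardstick, as the mean percentile of the former minus that of the latter. That difference was −0.189 to 25.4 in diabetic LPS+IFN-γ libraries and −31.1 to −23.2 in diabetic unstimulated libraries. These diabetic libraries served to choose the genes, so that separation was fixed in advance. The difference was −17.7 in control LPS+IFN-γ replicate 5, against −3.03 to 13.8 in the other 5 libraries of that group. It was −0.656 and −3.28 in control unstimulated replicates 5 and 6, against −24.7 to −6.59 in the other 4. Replicate 6, at −3.28, lay close to replicate 1 of its group, at −6.59. The 3 libraries were set apart on these same values, so H3K27ac results without them are not an independent check. Whether labels were exchanged among the 3 libraries was not tested and cannot be told apart here from other differences between cultures. For H3K27ac comparisons of a pair of groups that use control BMDM, the counts of called members and the values of called members are given with and without these 3 libraries. Marker genes of the labelled cell types behaved as follows for H3K27ac. The 8 stem and progenitor markers had a mean percentile of 54.6 to 60.1 in control HSC and 37.5 to 54.1 in control unstimulated BMDM, and the 8 macrophage markers had 29.7 to 41.4 and 48.7 to 72.5. In H3K4me3 the stem and progenitor markers overlapped, at 66.6 to 73.7 in control HSC and 65.7 to 77.7 in control unstimulated BMDM.

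Most members carried a promoter peak in most libraries, but few of those peaks were among the strongest. A peak was present in 60 or more of the 70 lists for 27 members (61.4%), against 57.6% of all genes. Relt, an orphan receptor, and Tnfrsf14 (HVEM, a receptor for Tnfsf14) were the 2 members occupied in every list, which is 4.55% of members against 30.3% of all genes. Without the shortest list the count was 10 members (22.7%), against 39.3% of genes. The median member was occupied in 63.5 lists and the median gene in 66. At the other end, Tnfsf18 (GITRL) was occupied in no list, Eda2r (an ectodysplasin receptor) in 2 and Tnfrsf4 (OX40, a T cell costimulatory receptor) in 7. These 3 members make 6.82%, against 21.3% of all genes occupied in under 10 lists.

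Among the 10000 strongest peaks of each list, the median member had a promoter peak in 11 lists and the median gene in 20. Only Ltbr, the lymphotoxin β receptor, in 62 lists and Tnfrsf21 (DR6, a death domain receptor) in 60 reached 60 lists, which is 4.55% of members against 25.7% of genes. Tnfsf12 (TWEAK) followed with 58, Tnfrsf1b with 55, Relt and Tnfrsf1a with 52 each, and Tnfrsf12a (Fn14, the TWEAK receptor) with 47. Tnfsfm13, a read-through gene of Tnfsf12 and Tnfsf13, shares the start of Tnfsf12 and has the same values throughout, so this pair is 1 promoter counted under 2 names. The windows of Tnfrsf12a and Cldn6, and of Tnfrsf9 and Park7, also share peaks, so the values of those members may belong in part or in whole to a neighbour. The median percentile of the members was 48.9 for H3K27ac, with 49.8 for all genes, and 44.7 for H3K4me3, with 51.8 for all genes. Ligands stood at 53.0 and receptors at 47.0 for H3K27ac, and at 43.4 and 46.6 for H3K4me3.

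**Figure D1:**
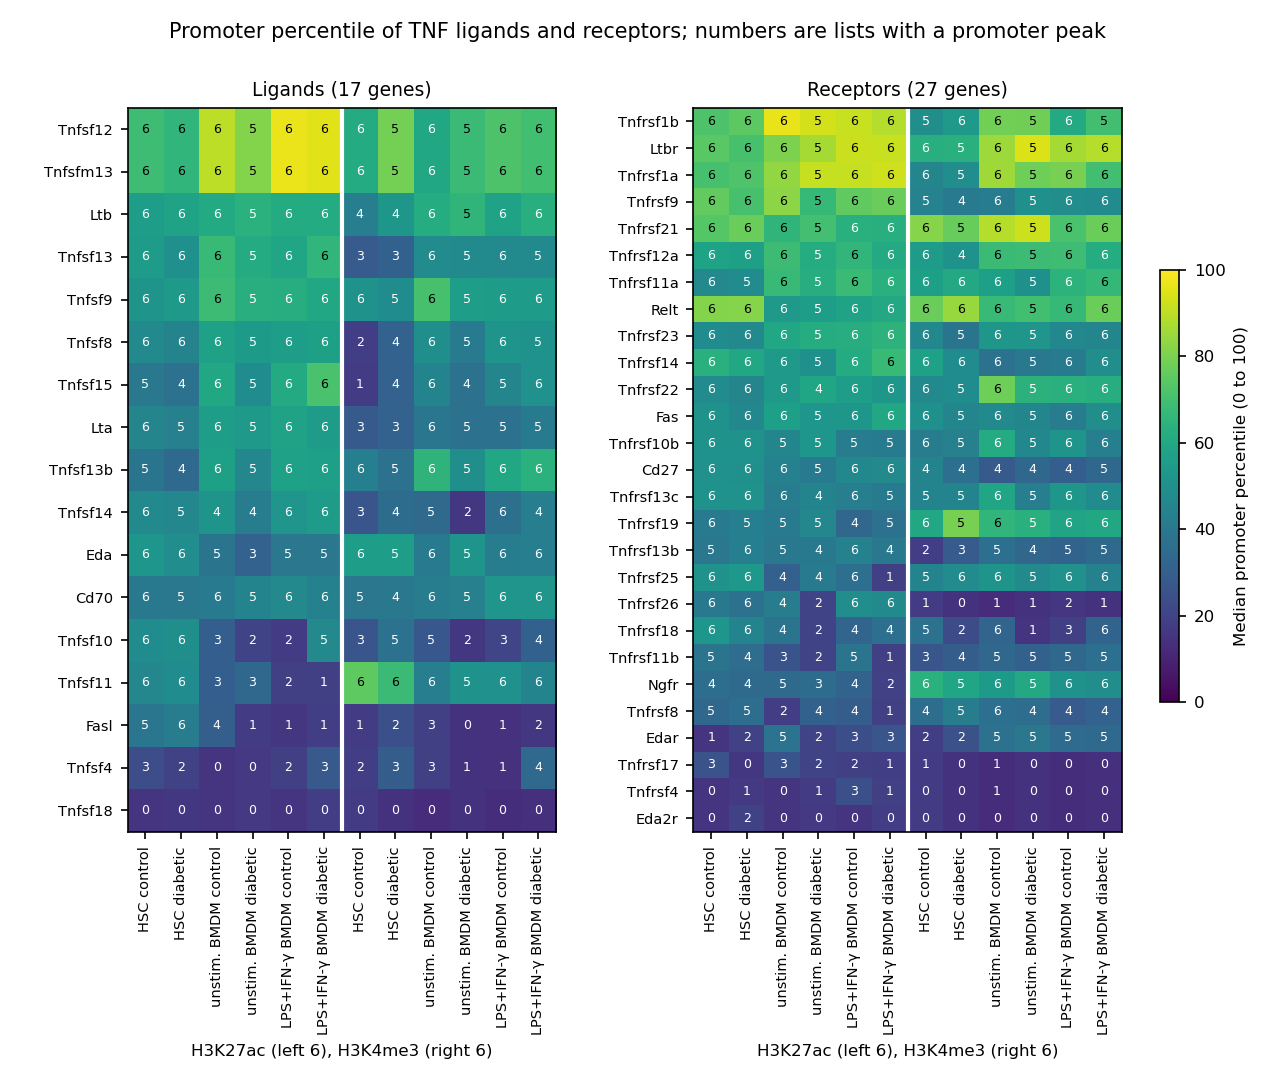
Median promoter percentile (colour, 0 to 100) of each ligand (left) and receptor (right) in the 12 groups, rows ordered by H3K27ac, with the number of lists that held a promoter peak printed in each cell. Tnfsf12, Tnfrsf1b and Ltbr lead for H3K27ac, Tnfsf18 is at the floor in every group, and Relt is brighter in HSC than in BMDM.

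The 2 marks did not always coincide on a member. Tnfrsf26, an orphan receptor gene in the same cluster as the decoy receptors Tnfrsf22 and Tnfrsf23, had an H3K27ac peak in 30 of 35 lists and an H3K4me3 peak in 6 of 35. Tnfrsf17 (BCMA, a plasma cell receptor) had 11 and 2, and Fasl, the death ligand of cytotoxic lymphocytes, 18 and 9. The opposite held for Tnfsf11, with 21 H3K27ac and 35 H3K4me3 lists, for Ngfr, the low-affinity neurotrophin receptor, with 22 and 34, and for Edar, the ectodysplasin A receptor, with 16 and 24. Tnfrsf9 (4-1BB, a costimulatory receptor) was among the 10000 strongest peaks in 33 H3K27ac lists and 2 H3K4me3 lists. As its windows share peaks with Park7, these counts may belong in part or in whole to Park7. Tests of these differences between antibodies were not made, since the marks were separate libraries with different peak numbers.

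Peaks usually lay just inside the gene. The summit of the strongest H3K27ac promoter peak was a median 76 bp downstream of its nearest start for Relt, 159 bp for Tnfrsf11a, 216 bp for Tnfrsf1b and 651 bp for Tnfsf13b. Ltb, the membrane partner of lymphotoxin α, differed, with a median summit 1335 bp downstream for H3K27ac and 1317 bp for H3K4me3, and only 4 of 35 and 3 of 31 summits within 1000 bp of a start. The percentile of Ltb therefore reports mostly peaks whose summit lies past the promoter window. For Ltbr the strongest H3K27ac peak had a median width of 2118 bp, between 1133 and 3854 bp across lists.

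The promoters behind the results below differ in base composition. RefSeq (GRCm38.p6) gave 40 promoter rows for 36 of the 44 members. Tnfsf12, Cd70, Tnfsf9, Tnfsf4, Tnfrsf22, Tnfrsf26, Tnfrsf10b and Tnfrsf11b had no entry. In the 250 bases before the start, a median of 8 CG dinucleotides was found in the members' rows and 6 in all 32841 promoters, and 20 or more in 2 of 40 rows (Tnfrsf11a with 31, Relt with 22) against 18.0% of all promoters. The sequences below are those of members that differed between cell types or with stimulation, 5′ to 3′ on the strand of the gene. Capitals mark matches, on either strand, to the interferon-γ activated site pattern TTCNNNGAA (GAS), the interferon-stimulated pattern GAAANNGAA (ISRE-like, which can overlap GAS) or the TATA pattern TATAAA.
Tnfrsf11a, chr1:105780473-105780722, plus strand: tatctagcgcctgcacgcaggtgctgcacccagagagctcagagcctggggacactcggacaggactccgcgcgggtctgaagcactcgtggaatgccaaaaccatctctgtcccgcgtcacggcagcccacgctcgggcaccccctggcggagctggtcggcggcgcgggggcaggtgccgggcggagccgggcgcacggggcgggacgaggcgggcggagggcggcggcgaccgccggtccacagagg
Tnfrsf1b, chr4:145246871-145247120, minus strand: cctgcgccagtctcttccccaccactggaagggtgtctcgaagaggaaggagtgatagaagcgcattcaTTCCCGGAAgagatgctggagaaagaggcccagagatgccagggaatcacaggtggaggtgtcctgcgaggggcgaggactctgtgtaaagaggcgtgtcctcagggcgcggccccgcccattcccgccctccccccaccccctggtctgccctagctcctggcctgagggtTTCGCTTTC
Relt, chr7:100863414-100863663, minus strand: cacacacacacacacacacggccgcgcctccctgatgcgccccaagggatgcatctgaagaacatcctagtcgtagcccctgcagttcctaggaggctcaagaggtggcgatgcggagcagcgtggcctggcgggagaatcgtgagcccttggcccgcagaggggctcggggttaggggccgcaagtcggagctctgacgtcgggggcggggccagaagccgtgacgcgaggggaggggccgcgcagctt
Tnfsf11, chr14:78308044-78308293, minus strand: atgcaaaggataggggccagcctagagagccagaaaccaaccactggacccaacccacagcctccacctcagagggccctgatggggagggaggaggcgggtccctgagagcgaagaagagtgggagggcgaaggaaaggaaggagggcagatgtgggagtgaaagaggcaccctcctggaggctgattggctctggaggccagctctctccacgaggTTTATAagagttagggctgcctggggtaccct
Tnfsf15, chr4:63745060-63745309, minus strand: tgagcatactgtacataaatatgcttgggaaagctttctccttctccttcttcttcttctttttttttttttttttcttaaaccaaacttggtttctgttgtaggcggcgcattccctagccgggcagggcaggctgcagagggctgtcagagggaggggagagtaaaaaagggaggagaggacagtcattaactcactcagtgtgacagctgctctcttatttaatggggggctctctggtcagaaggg
Tnfrsf14, chr4:154928078-154928327, minus strand: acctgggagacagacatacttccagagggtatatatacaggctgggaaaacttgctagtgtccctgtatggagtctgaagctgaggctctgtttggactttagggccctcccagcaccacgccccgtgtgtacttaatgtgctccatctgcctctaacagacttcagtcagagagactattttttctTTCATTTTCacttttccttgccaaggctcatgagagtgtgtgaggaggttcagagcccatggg
Tnfrsf1a, chr6:125349473-125349722, plus strand: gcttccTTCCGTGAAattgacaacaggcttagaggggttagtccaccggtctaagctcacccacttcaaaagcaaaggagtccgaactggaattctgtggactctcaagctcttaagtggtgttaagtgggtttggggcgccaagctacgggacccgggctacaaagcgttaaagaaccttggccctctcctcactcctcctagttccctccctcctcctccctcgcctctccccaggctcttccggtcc
Tnfrsf1b held GAS at −181 and ISRE-like at −9, Tnfrsf14 an ISRE-like match at −63, Tnfrsf1a GAS at −244 and Tnfsf11 a TATA match at −32, counted from the start. The CG-rich windows of Tnfrsf11a and Relt held none of the patterns, nor did that of Tnfsf15, which is poor in CG (3). GAS was found in 8 of the 40 rows, ISRE-like in 6 and TATA in 6, against 7.02%, 7.13% and 12.4% of all promoters. The macrophage factor pattern AGGAAGT (PU.1-type) was found in 4 rows against 7.69%, TGTGGTT (Runx-type) in 1 against 4.40%, GGGANNTTC (κB-like) in 2 against 3.23% and TGANTCA (AP-1) in 6 against 6.75%. A match is a run of letters and was not tested for binding.

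The first question was how member promoters differ between progenitors and the macrophages grown from bone marrow. In control mice, H3K27ac separated 15 of the 42 members tested, 10 higher in unstimulated BMDM (6 ligands and 4 receptors) and 5 lower (2 ligands and 3 receptors). Of all 16825 genes tested, 16.1% were called, 8.33% higher and 7.77% lower. The median difference was 1.15 points over the members and −0.39 over all genes. Members higher in BMDM included RANK, BAFF, 4-1BBL, TWEAK and TNF receptor 2, and those lower included Relt, RANKL, the T cell receptors Tnfrsf25 and Tnfrsf18, and Eda. At an unadjusted limma p under 0.05 there were 24 members and 4870 genes. Without the 3 libraries that stood apart, 10 members were called with 2105 genes (12.5%), all 10 among the 15, and the 5 lost were Tnfrsf18, Tnfsf12, Tnfsfm13, Tnfsf13 and Tnfsf15. Tnfsf18 and Eda2r were not tested, since fewer than 6 lists of the mark held a peak.

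Among receptors, Tnfrsf11a (RANK; chromosome 1, 105780718 to 105847981, plus strand) stood at 62.5, 67.6 and 75.2 (lowest, median, highest of 6) in control unstimulated BMDM and at 43.0, 46.9 and 50.9 in control HSC. Every BMDM library was above every HSC library, and the difference was 20.6 ± 3.90 points (limma, adjusted p = 0.000119), or 19.7 without the 3 libraries. Its promoter was among the 10000 strongest H3K27ac peaks in 6 of 6 BMDM libraries and 0 of 6 HSC libraries. Tnfrsf1b (TNF receptor 2; chromosome 4, 145213463 to 145246870, minus strand) stood at 71.7, 96.5 and 99.1 in BMDM and 67.6, 72.2 and 83.0 in HSC. The value of 71.7 belongs to replicate 5, a library that stood apart, and the other 5 were above all HSC. The difference was 19.1 ± 3.87 points (limma, adjusted p = 0.000317), and 23.3 without the 3 libraries. Ranked by fold instead of −log10 p, Tnfrsf1b was 11.7 points higher and not called (limma, adjusted p = 0.163). Tnfrsf12a (12.5 points, limma adjusted p = 0.0265) and Edar (16.2 points, adjusted p = 0.0334) were also higher, at 15.3 (0.0137) and 19.0 (0.0298) without the 3 libraries.

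Among ligands, Tnfsf13b (BAFF; chromosome 8, 10006467 to 10039072, plus strand) stood at 53.5, 57.0 and 59.7 in control unstimulated BMDM and 17.0, 38.8 and 43.9 in control HSC, with no overlap. The difference was 20.9 ± 4.20 points (limma, adjusted p = 0.000282), and 20.9 again without the 3 libraries. Tnfsf9, the ligand of 4-1BB (chromosome 17, 57105325 to 57107757, plus strand), stood at 55.4, 68.5 and 94.5 in BMDM and 45.9, 51.8 and 56.7 in HSC. It was above all HSC libraries in 5 of 6 BMDM libraries, and the difference was 19.5 ± 4.41 points (limma, adjusted p = 0.00131), or 24.3 without the 3 libraries. The TWEAK promoter (Tnfsf12 and Tnfsfm13) was higher by 17.8 points (limma, adjusted p = 0.00269), Tnfsf15 (TL1A) by 17.3 (0.0266) and Tnfsf13 (APRIL, a B cell and plasma cell factor) by 11.5 (0.0373). Leaving out the 3 libraries gave the TWEAK promoter 13.3 points (limma, adjusted p = 0.0525), Tnfsf15 14.5 (0.125) and Tnfsf13 11.6 (0.0839).

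The member with the largest difference in control mice was Relt (chromosome 7, 100845847 to 100863446, minus strand), the orphan receptor. It stood at 51.1, 54.1 and 61.1 in control unstimulated BMDM and 75.3, 81.3 and 87.8 in control HSC. No libraries overlapped, and the difference was −26.0 ± 3.36 points (limma, adjusted p = 1.11e-07). Relt kept its place among the 10000 strongest peaks in 6 of 6 HSC libraries and 1 of 6 BMDM libraries. Tnfrsf25 (DR3, the receptor of TL1A on T cells) stood at 16.1, 30.8 and 41.6 in BMDM and 41.7, 51.3 and 61.2 in HSC, also without overlap, a difference of −21.4 ± 5.04 points (limma, adjusted p = 0.00192). Tnfrsf18 (GITR, a T cell costimulatory receptor) differed by −19.1 points (limma, adjusted p = 0.0148; 0.215 without the 3 libraries), Tnfsf11 (RANKL) by −18.5 (0.0166) and Eda (ectodysplasin A, an epithelial ligand) by −16.1 (0.0251). Without the 3 libraries the differences were −23.9 for Relt, −19.4 for Tnfrsf25, −18.8 for Tnfsf11 and −17.8 for Eda, all still called.

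**Figure D2:**
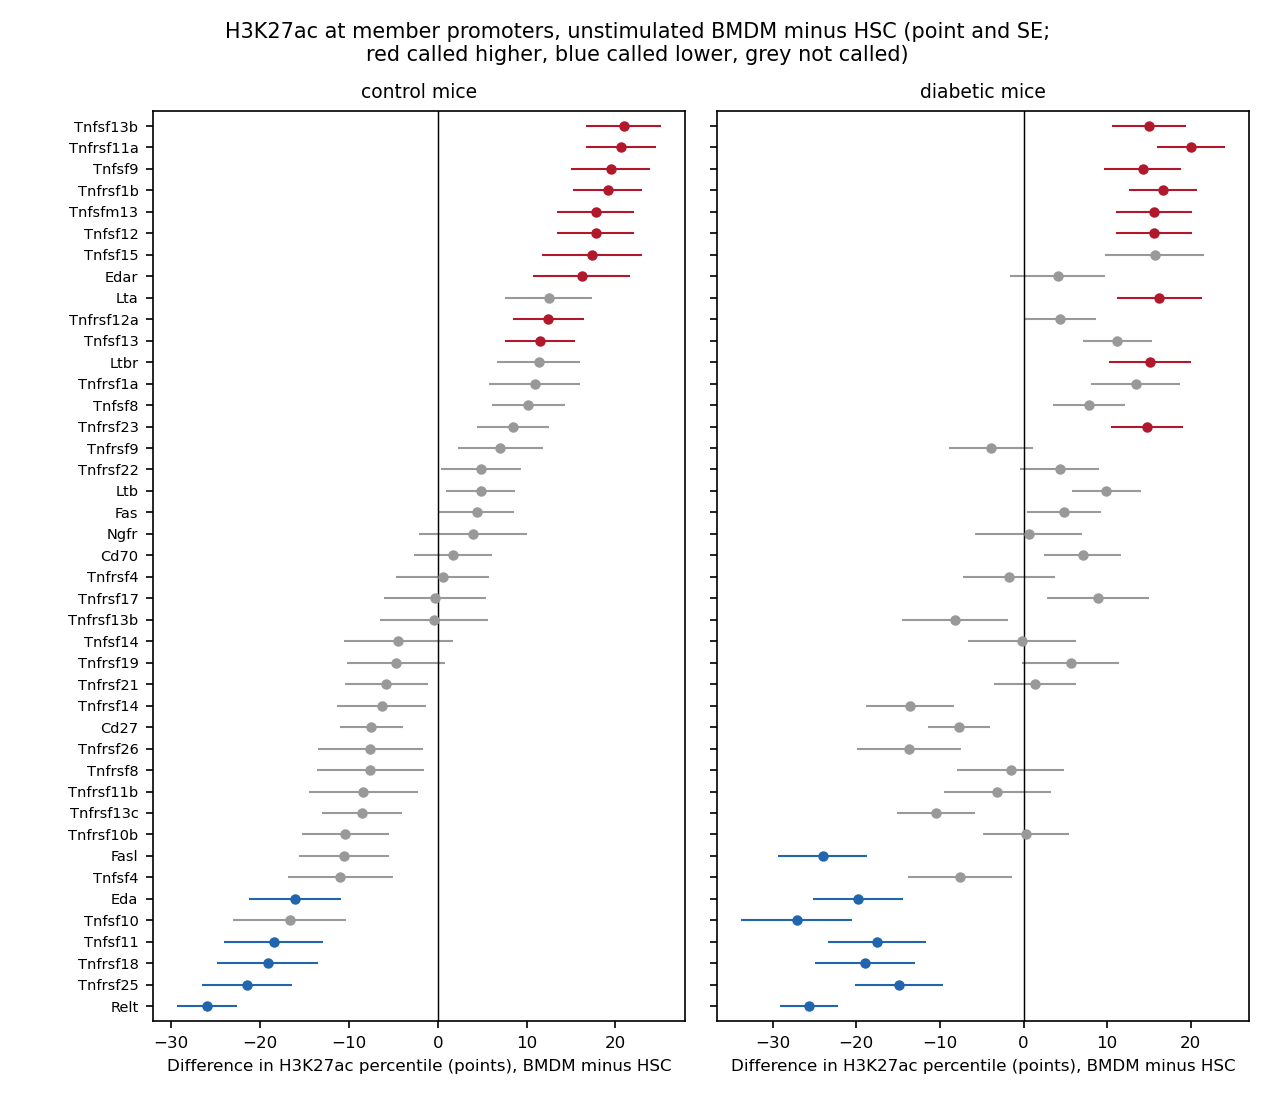
Difference in H3K27ac promoter percentile between unstimulated BMDM and HSC (x axis, points; error bars are the standard error from limma) for the 42 members tested, in control mice (left; 6 against 6 libraries) and diabetic mice (right; 5 against 6), with red for called higher, blue for called lower and grey for not called. Relt, Tnfsf11, Eda, Tnfrsf18 and Tnfrsf25 are blue on both sides, and Tnfsf13b, Tnfrsf11a, Tnfsf9, Tnfrsf1b and the Tnfsf12 pair are red on both.

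In diabetic mice the same comparison called 16 of 42 members, 9 higher (5 ligands, 4 receptors) and 7 lower (4 ligands, 3 receptors), with 15.9% of all genes called, 8.58% higher and 7.36% lower. The median difference was 2.72 points over the members and −0.30 over all genes. A total of 11 members were called in both disease groups: Eda, Relt, Tnfrsf11a, Tnfrsf18, Tnfrsf1b, Tnfrsf25, Tnfsf11, Tnfsf12, Tnfsf13b, Tnfsf9 and Tnfsfm13. They are 26.2% of the 42 tested, 73.3% of the control calls and 68.8% of the diabetic calls. Of all genes tested 9.30% were called in both, which is 57.7% of the control calls and 58.3% of the diabetic calls. The disease groups share no libraries. At an unadjusted limma p under 0.05 there were 24 members and 4879 genes in diabetic mice. The test of the difference between disease groups called 0 genes (limma; 493 genes and 0 members at an unadjusted p under 0.05), with a lowest member adjusted p of 1.00, so calls in 1 group alone were not shown to be particular to it.

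Relt in diabetic unstimulated BMDM stood at 54.3, 56.1, 58.5, 55.8 and 62.0, and in diabetic HSC at 75.3, 81.7 and 89.7 (lowest, median, highest of 6). The groups did not overlap, and the difference was −25.6 ± 3.52 points (limma, adjusted p = 5.05e-07). Tnfrsf11a stood at 70.3, 62.1, 57.6, 62.3 and 65.4 in BMDM and at 21.6, 48.3 and 51.8 in HSC, where replicate 6 had no promoter peak. The difference was 20.0 ± 4.09 points (limma, adjusted p = 0.000378). RANK thus had the higher rank in BMDM, and RANKL the lower, in both disease groups: Tnfsf11 had an H3K27ac promoter peak in 6 of 6 control and 6 of 6 diabetic HSC libraries, and in 3 of 6 control and 3 of 5 diabetic unstimulated BMDM libraries. Its difference in diabetic mice was −17.5 points (limma, adjusted p = 0.0312). Tnfrsf1b stood at 95.7, 95.8, 93.4, 91.1 and 85.9 in diabetic BMDM and 71.3, 74.9 and 80.4 in diabetic HSC, again without overlap and 16.6 points higher (limma, adjusted p = 0.00295), but 10.2 points and not called when ranked by fold (0.273).

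TRAIL and Fas ligand were lower in diabetic BMDM than in diabetic HSC. Tnfsf10 (TRAIL; chromosome 3, 27317028 to 27342427, plus strand) stood at 34.2, 26.98, 20.3, 17.3 and 14.4, and in diabetic HSC at 42.0, 49.7 and 59.3. A promoter peak was listed in 2 of the 5 BMDM libraries and all 6 HSC libraries, and the difference was −27.1 ± 6.64 points (limma, adjusted p = 0.00305). Fasl (chromosome 1, 161780689 to 161788495, minus strand) stood at 16.6, 29.0, 20.3, 17.3 and 14.4 in BMDM, with a peak in 1 library, and at 39.8, 42.5 and 53.0 in HSC. The difference was −24.0 ± 5.33 points (limma, adjusted p = 0.00106). In control mice both had smaller differences that were not called, −16.7 ± 6.33 points for Tnfsf10 (limma, adjusted p = 0.0625) and −10.6 ± 5.08 for Fasl (0.155). Eda (chromosome X, 99975606 to 100400762, plus strand) stood at 16.6, 31.6, 20.3, 39.0 and 41.9 in diabetic BMDM and 46.9, 49.1 and 53.6 in diabetic HSC, a difference of −19.8 ± 5.42 points (limma, adjusted p = 0.00786). Tnfrsf18 (chromosome 4, 156026164 to 156028895, plus strand) stood at 16.6, 39.6, 20.3, 17.3 and 39.7 in diabetic BMDM and 41.3, 45.2 and 51.8 in diabetic HSC, a difference of −19.0 ± 5.95 points (limma, adjusted p = 0.0219). Neither overlapped between the groups, and Tnfrsf18 had a peak in 2 of the 5 BMDM libraries.

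Called in diabetic mice alone were also Lta (lymphotoxin α; 16.3 points, limma adjusted p = 0.0231), the receptor of lymphotoxin α1β2, Ltbr (15.1 points, adjusted p = 0.0257) and Tnfrsf23, a decoy TRAIL receptor (14.8 points, adjusted p = 0.0124), all higher in BMDM. In control mice Ltbr differed by 11.4 ± 4.64 points (limma, adjusted p = 0.087). Lta lost its call without HSC replicate 6 (12.5 points, limma adjusted p = 0.0951), or unstimulated BMDM replicate 1 (12.2, 0.12) or 2 (15.4, 0.0549). Ltbr lost it without HSC replicate 5 (13.0 points, limma adjusted p = 0.0749) or 6 (12.6, 0.0855) or BMDM replicate 2 (12.3, 0.103), and Tnfrsf23 without BMDM replicate 2 (12.8, 0.0532).

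Several other calls between cell types depended on single libraries. With 1 library left out at a time, 8 of the 15 members called in control mice and 6 of the 16 in diabetic mice kept their H3K27ac call in every fit. In control mice Edar lost it without HSC replicate 1, 2, 3, 4 or 6 or BMDM replicate 1, 2, 3 or 6, at 14.8 to 15.7 points (limma, adjusted p = 0.0574 to 0.0687). Tnfsf13 lost it without HSC replicate 2, 3, 4 or 6 or BMDM replicate 1, 2, 3 or 6, at 10.4 to 11.6 points (limma, adjusted p = 0.0526 to 0.0823). Tnfsf15 lost it without HSC replicate 2, 3 or 6 or BMDM replicate 3 or 6 (12.3 to 16.5 points, limma adjusted p = 0.0530 to 0.130), and Tnfrsf12a without HSC replicate 1, 4 or 6 or BMDM replicate 2 (9.28 to 11.7 points, 0.0540 to 0.115). Eda lost it without HSC replicate 2, 5 or 6 or BMDM replicate 1 (−15.5 to −12.3 points, limma adjusted p = 0.0505 to 0.0926), Tnfsf11 without replicate 3 of either (−16.1 and −15.4, 0.0515 and 0.0611) and Tnfrsf18 without BMDM replicate 6 (−15.5, 0.0627).

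In diabetic mice the call of Tnfrsf25 was lost without HSC replicate 1, 3, 4, 5 or 6 or BMDM replicate 1, 2, 4 or 5, at −15.9 to −10.5 points (limma, adjusted p = 0.0505 to 0.195). Tnfsf11 lost its call without HSC replicate 1, 2 or 3 or BMDM replicate 4 or 5 (−16.9 to −14.2 points, limma adjusted p = 0.0549 to 0.114), and Tnfrsf18 without BMDM replicate 1 (−16.4 points, 0.0734), 4 (−17.4, 0.0565) or 5 (−16.6, 0.0673). Tnfsf9 and Tnfsf13b each lost it without HSC replicate 1 or BMDM replicate 1, Tnfsf9 at 12.9 and 9.32 points (limma, adjusted p = 0.0633 and 0.176) and Tnfsf13b at 12.4 and 13.2 (0.0510 and 0.0511), and the Tnfsf12 pair without BMDM replicate 6 (12.4 points, 0.0682). Ranking by fold ended further calls. In control mice it gave the Tnfsf12 pair 11.1 points (limma, adjusted p = 0.314), Tnfsf15 13.5 (0.311), Tnfsf13 14.3 (0.111), Edar 17.3 (0.0553), Tnfrsf12a 18.5 (0.056) and Tnfsf11 −16.4 (0.109). In diabetic mice it gave the pair 11.5 points (limma, adjusted p = 0.336), Tnfsf13b 12.0 (0.241), Tnfsf9 14.9 (0.158), Ltbr 16.1 (0.129), Tnfrsf23 19.3 (0.0804), Tnfsf11 −14.4 (0.199), Tnfrsf25 −14.4 (0.157) and Tnfrsf18 −18.9 (0.0751).

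Markers of erythroid cells and of T and NK cells were also lower in BMDM, while those of B cells overlapped. The 5 erythroid markers all had a promoter peak in every HSC library, at a mean H3K27ac percentile of 52.1 to 68.2 in control and 51.5 to 70.5 in diabetic HSC, against 31.7 to 37.5 and 33.7 to 39.3 in unstimulated BMDM, where Gata1, an erythroid transcription factor, was occupied in 0 of 6 control and 1 of 5 diabetic libraries. The 6 T and NK cell markers had 29.6 to 42.5 and 29.6 to 37.2 in HSC and 24.5 to 28.3 and 21.7 to 28.4 in BMDM, with Ncr1 occupied in none and Cd3e in 2 of 6 control and 1 of 6 diabetic HSC libraries. The 6 B cell markers had 43.1 to 55.8 and 37.7 to 48.3 in HSC and 33.9 to 46.4 and 37.9 to 48.5 in BMDM. Their part in the lower ranks of Relt, Tnfrsf25, Tnfrsf18, Fasl, Tnfsf10 and Tnfsf11 was not tested. In bulk samples fewer cells with a mark and less of the mark per cell cannot be told apart.

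**Figure D3:**
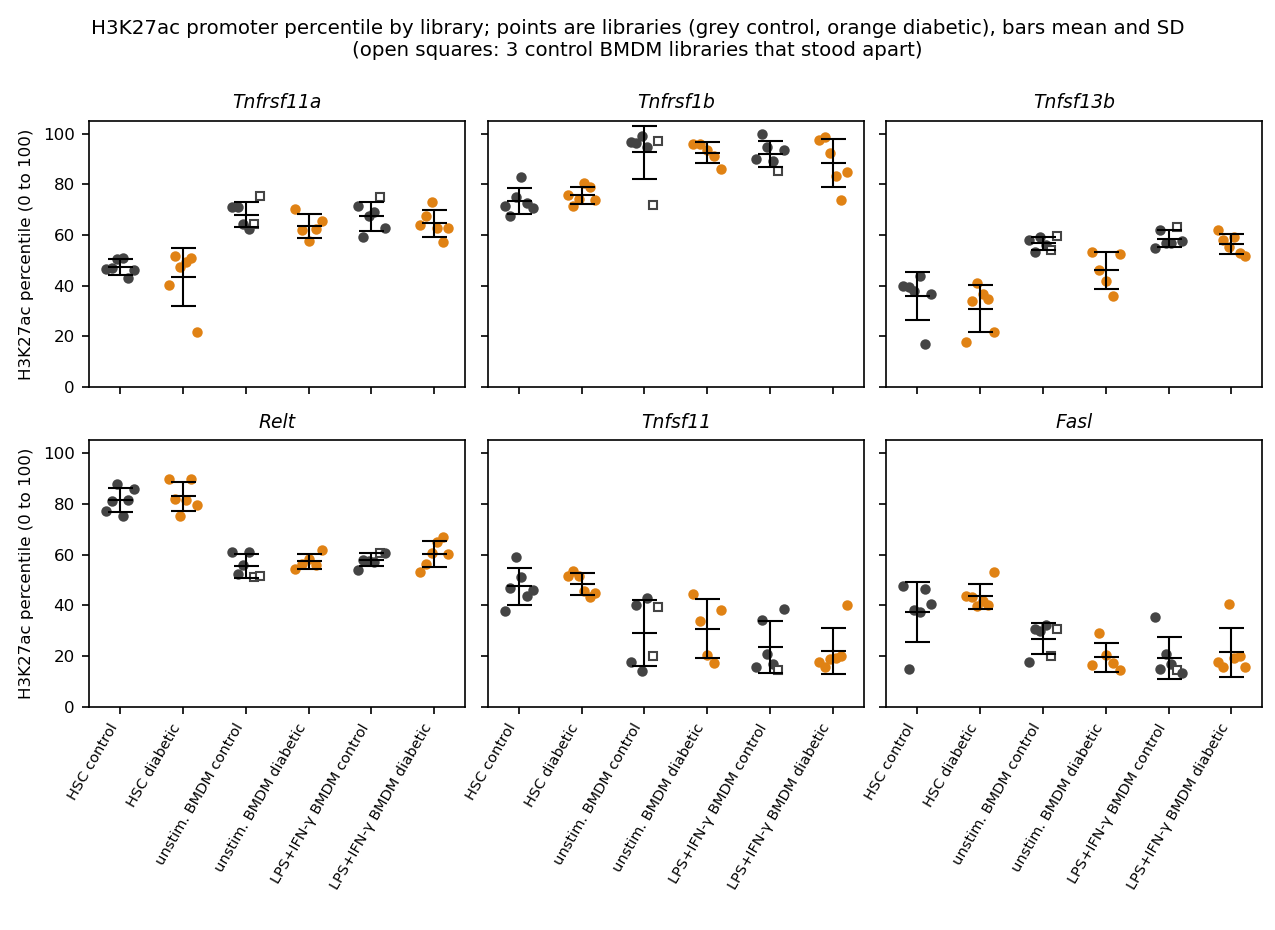
H3K27ac promoter percentile (y axis, 0 to 100) of 6 members in every library of the 6 groups, with mean and SD as bars and open squares for the 3 control BMDM libraries that stood apart. Tnfrsf11a, Tnfrsf1b and Tnfsf13b sit higher in BMDM than in HSC, and Relt sits at 75.3 to 89.7 in HSC and at 51.1 to 66.8 in BMDM.

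The second question was what 16 h of LPS+IFN-γ does to the same promoters. In diabetic BMDM 3 of 42 members were called, all higher, with 2.92% of all genes called, 1.33% higher and 1.59% lower. The median difference was 2.05 points over the members and −0.46 over all genes, and 12 members and 3128 genes had an unadjusted p under 0.05. The 3 were Tnfsf15 (TL1A), Tnfrsf26 and Tnfrsf14 (HVEM).

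Tnfsf15 (TL1A, an inflammatory ligand of myeloid and endothelial cells; chromosome 4, 63727084 to 63745113, minus strand) stood at 61.6, 71.2 and 84.4 (lowest, median, highest of 6) in diabetic LPS+IFN-γ BMDM. In diabetic unstimulated BMDM it stood at 63.4, 49.5, 48.6, 35.1 and 45.0. Of the 6 stimulated libraries, 5 were above all the unstimulated ones, and the difference was 24.9 ± 5.88 points (limma, adjusted p = 0.0131). Leaving out unstimulated replicate 5 gave 21.6 points (limma, adjusted p = 0.0571). H3K4me3 at Tnfsf15 was higher by 24.6 ± 7.66 points in the same cultures (limma, unadjusted p = 0.00208, adjusted p = 0.409), which was not called.

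Tnfrsf14 (chromosome 4, 154921933 to 154928563, minus strand) stood at 56.2, 67.6 and 91.0 with LPS+IFN-γ and at 53.5, 48.9, 50.7, 50.2 and 47.6 without, with no overlap. The difference was 19.8 ± 5.25 points (limma, adjusted p = 0.0281). The call was lost without LPS+IFN-γ replicate 1 (17.9 points, adjusted p = 0.0706) or replicate 3 (15.6, 0.121), and without unstimulated replicate 2 (19.5, 0.0512), 4 (19.9, 0.0512), 5 (19.8, 0.0571) or 6 (19.1, 0.0603). Tnfrsf26 (chromosome 7, 143607659 to 143628722, minus strand) stood at 38.5, 47.8 and 79.8 with LPS+IFN-γ. Its values without stimulation were 16.6, 13.2, 20.3, 43.1 and 33.3, and a peak was listed in 2 of those 5 libraries and in all 6 stimulated ones. Of the stimulated libraries, 4 of 6 were above all the unstimulated ones. The difference was 25.6 ± 6.24 points (limma, adjusted p = 0.0159), and it lost its call without LPS+IFN-γ replicate 3 (19.9 points, adjusted p = 0.0854), which held the value of 79.8, or unstimulated replicate 2 (22.6, 0.0519).

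Members close to a call in diabetic BMDM were Tnfsf10 (20.9 points higher, limma adjusted p = 0.0701), Tnfrsf21 (−14.4, 0.0897), Tnfrsf25 (−15.2, 0.0954) and Tnfsf12 (11.8, 0.135). Tnfrsf25 had a peak in 4 of 5 unstimulated and 1 of 6 stimulated diabetic libraries.

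In control BMDM no member was called for H3K27ac with LPS+IFN-γ, nor was any gene (0% by limma). At an unadjusted limma p under 0.05 there were 886 genes and 3 members. Fisher's exact test on the 10000 strongest peaks also called 0 genes. With so few libraries per group it can call a gene only where many genes separate fully at once. Tnfsf15 differed by 7.21 ± 5.61 points (limma, adjusted p = 0.960), Tnfrsf26 by 11.8 (0.931) and Tnfrsf14 by 6.65 (0.960). Without the 3 libraries that stood apart, 75 genes were called and again 0 members, with Tnfsf15 at 12.2 points, Tnfrsf26 at 11.6 and Tnfrsf14 at 8.28. The 13 markers of stimulated macrophages had mean percentiles of 32.3 to 51.6 with LPS+IFN-γ and 29.9 to 42.8 without in control BMDM, which overlap, and 35.7 to 52.6 against 28.3 to 32.5 in diabetic BMDM, which do not. The response to stimulation was not shown to differ between disease groups. The difference of the 2 responses was 17.7 ± 8.13 points for Tnfsf15 (limma, adjusted p = 0.747), 13.8 for Tnfrsf26 (0.812) and 13.1 for Tnfrsf14 (0.788), and 0 genes were called, with 1093 genes and 4 members at an unadjusted p under 0.05 and a lowest member adjusted p of 0.653.

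**Figure D4:**
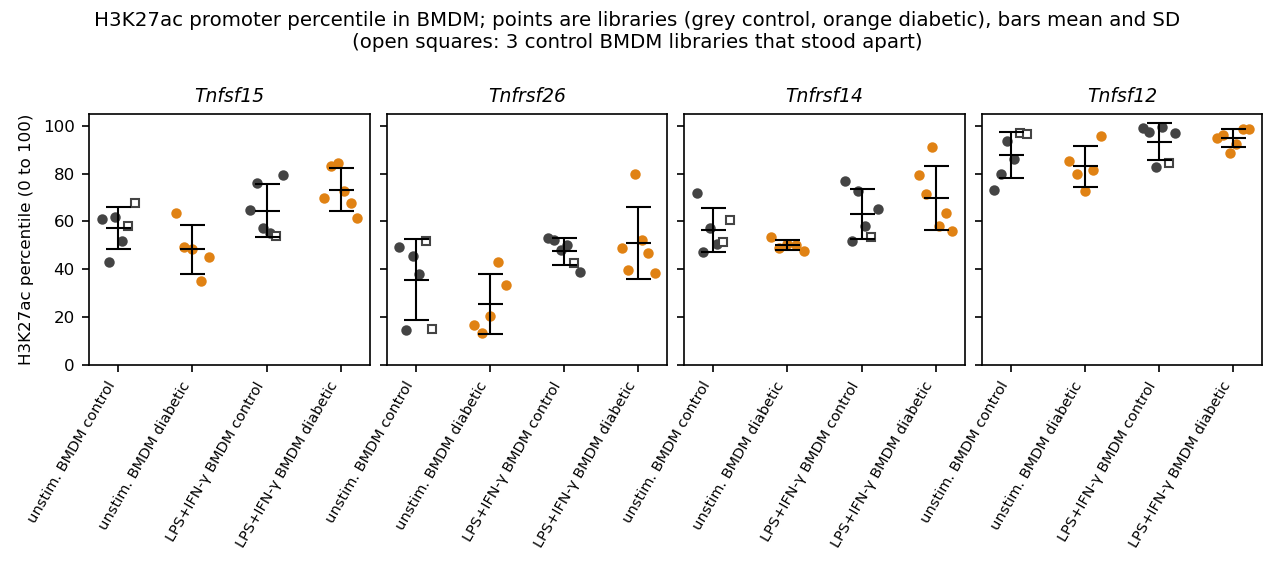
H3K27ac promoter percentile (y axis, 0 to 100) of Tnfsf15, Tnfrsf26, Tnfrsf14 and Tnfsf12 in every BMDM library, with mean and SD as bars and open squares for the 3 control libraries that stood apart. Tnfrsf14 is at 47.6 to 53.5 in diabetic unstimulated and 56.2 to 91.0 in diabetic LPS+IFN-γ libraries, while the control groups overlap.

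H3K4me3 gave fewer calls. Between unstimulated BMDM and HSC of control mice, 4 of 40 members tested were called, 3 higher and 1 lower, with 5.34% of 17105 genes called, 3.17% higher and 2.17% lower. The median difference was 4.77 points over the members and 1.28 over all genes. The control HSC lists held 37378 to 109214 peaks and the control unstimulated BMDM lists 81003 to 212718. With the log2 peak number as a covariate 0 members were called (limma), so list length and cell type were not separated for this mark. The 4 untested members were Tnfsf18, Eda2r, Tnfrsf17 and Tnfrsf4.

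Tnfrsf1a (TNF receptor 1; chromosome 6, 125349362 to 125362484, plus strand) stood at 57.1, 85.6 and 95.0 in control unstimulated BMDM and 40.6, 45.5 and 58.5 in control HSC for H3K4me3, with 5 of 6 BMDM libraries above all HSC. The difference was 32.6 ± 8.84 points (limma, adjusted p = 0.0237), and 14.2 (adjusted p = 0.504) with the peak number as a covariate. It lost its call without unstimulated BMDM replicate 2 (30.6 points, adjusted p = 0.0586) or 3 (29.9, 0.0505), or HSC replicate 2 (31.9, 0.0532). In diabetic mice its difference was 24.6 ± 9.27 points (limma, adjusted p = 0.159). Across the 35 H3K4me3 libraries, the genes whose percentiles ran most like those of Tnfrsf1a were Proser3 (Pearson's r = 0.862), Unc93b1 (0.834) and Ap2s1 (0.821), a description over libraries that share list length and cell type.

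Tnfsf11 (RANKL; chromosome 14, 78277445 to 78308043, minus strand) stood at 39.7, 42.6 and 64.0 in control unstimulated BMDM and 55.5, 75.1 and 82.8 in control HSC, a difference of −25.7 ± 6.58 points (limma, adjusted p = 0.0187). The highest BMDM library overlapped the HSC range. RANKL ranked lower in control BMDM in both marks, but its H3K4me3 call did not hold in several settings. Ranked by fold the H3K4me3 difference was −13.8 (limma, adjusted p = 0.489), and in the top 10000 peaks −31.9 (0.0646). Without the 3 control BMDM libraries numbered as those that stood apart for H3K27ac it was −24.0 (0.0908). With the peak number as a covariate it was −19.4 (0.223). Without HSC replicate 2 it was −23.4 (adjusted p = 0.0508), and in diabetic mice −12.5 ± 6.90 (adjusted p = 0.351).

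Tnfsf15 stood at 36.0, 45.1 and 53.0 in control BMDM and 16.8, 17.7 and 32.1 in control HSC, where 1 of 6 libraries had a peak. The groups did not overlap, and the difference was 24.0 ± 7.31 points (limma, adjusted p = 0.0400). Tnfsf8 (CD30L, a ligand of activated lymphocytes; chromosome 4, 63831308 to 63861347, minus strand) stood at 31.7, 49.7 and 68.8 in BMDM and 14.0, 18.6 and 41.6 in HSC, with a peak in 2 of 6 HSC libraries. Its difference was 26.8 ± 7.62 points (limma, adjusted p = 0.0300). With the peak number as a covariate the differences were 9.23 for Tnfsf15 (limma, adjusted p = 0.618) and 23.3 for Tnfsf8 (0.217). The call of Tnfsf15 was lost without BMDM replicate 1, 2, 3 or 6 or HSC replicate 2, 3, 4, 5 or 6, 1 at a time, at 22.3 to 24.3 points (adjusted p = 0.0557 to 0.0838). That of Tnfsf8 was lost without BMDM replicate 2 or 6 or HSC replicate 2, 4 or 5, at 23.3 to 25.9 points (adjusted p = 0.0506 to 0.0820).

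In diabetic mice 1 of 40 members was called for H3K4me3, with 0.766% of genes called, 0.479% higher and 0.286% lower. The median difference was 3.31 points over the members and 0.39 over all genes. Ltbr (chromosome 6, 125306571 to 125313885, minus strand) stood at 94.5, 98.0, 97.2, 66.0 and 88.7 in diabetic unstimulated BMDM and 29.6, 63.5 and 68.6 in diabetic HSC, where 29.6 is the floor of the shortest list. The difference was 32.3 ± 8.04 points (limma, adjusted p = 0.0452), and 26.9 (adjusted p = 0.0922) without that list. Leaving out BMDM replicate 1, 2 or 4 or HSC replicate 1, 3 or 4 also ended the call, at 30.1 to 34.5 points (adjusted p = 0.0509 to 0.125). In control mice Ltbr differed by 17.2 ± 7.67 points (limma, adjusted p = 0.155). The test of the difference between disease groups called 0 genes (limma; 721 genes and 0 members at an unadjusted p under 0.05; lowest member adjusted p = 0.999).

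**Figure D5:**
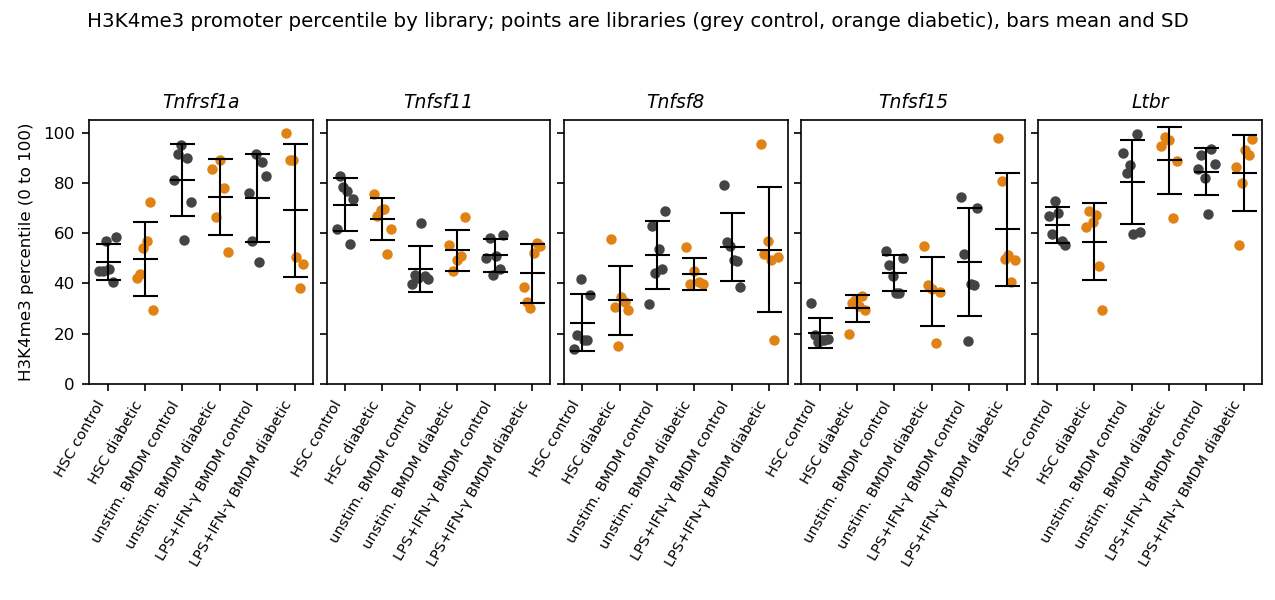
H3K4me3 promoter percentile (y axis, 0 to 100) of Tnfrsf1a, Tnfsf11, Tnfsf8, Tnfsf15 and Ltbr in every library of the 6 groups, with mean and SD as bars. Tnfsf11 is at 55.5 to 82.8 in control HSC and 30.3 to 66.3 in BMDM, and the diabetic HSC library at 29.6 for Ltbr is the shortest list.

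With LPS+IFN-γ, H3K4me3 separated no member and no gene in control or diabetic BMDM (0% in each by limma). At an unadjusted limma p under 0.05 there were 565 and 1164 genes and 1 and 3 members. Fisher's exact test also called none, with the limit given above for so few libraries. The difference between the responses of the 2 disease groups called 0 genes (limma; 805 genes and 2 members at an unadjusted p under 0.05; lowest member adjusted p = 0.836).

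The third question was diabetes itself. No member and no gene was called between diabetic and control mice in HSC, unstimulated BMDM or LPS+IFN-γ BMDM for either mark. The share was 0% in each of the 6 comparisons by limma and by Fisher's exact test. With so few libraries per group, Fisher's exact test can call a gene only where many genes separate fully at once. Its 0 therefore adds little to that of limma. At an unadjusted limma p under 0.05 there were 318, 980 and 785 of 16825 genes for H3K27ac in these 3 cell states, with 0, 2 and 4 of 42 members. For H3K4me3 there were 773, 674 and 883 of 17105 genes, with 1, 1 and 3 of 40 members. The H3K27ac count in HSC was the smallest of these. Whether the spread shared over the 6 groups suits HSC was not tested. For a check, H3K27ac values were simulated from each gene's mean over all libraries and its spread averaged over the 6 groups. The noise was normal and independent, without the floor of the real lists. With 200 genes shifted by 20 points in diabetic HSC, 139 were recovered against control HSC with 6 false calls. These counts are not the recovery of the HSC comparison itself. Smaller shifts may not have been detectable. The 200 genes were shifted together, and recovery of a lone shifted gene was not tested. Recovery was also not tested for BMDM or for H3K4me3, so it is unknown how large a shift could be missed there. Member shifts close to 20 points that were not called are given below.

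Without the 3 control libraries that stood apart, H3K27ac again called 0 genes, with 874 genes and 5 members at an unadjusted p under 0.05 in unstimulated BMDM and 662 genes and 4 members with LPS+IFN-γ. Members with the lowest unadjusted p in these comparisons are given as values. In unstimulated BMDM, H3K27ac at Tnfsf13b (BAFF) stood at 53.4, 46.1, 41.9, 36.0 and 52.7 in diabetic libraries and 53.5, 57.0 and 59.7 (lowest, median, highest of 6) in control libraries, −10.7 ± 4.41 points (limma, unadjusted p = 0.0184, adjusted p = 0.805). The groups did not overlap, but the closest values were 53.4 and 53.5. Tnfrsf9 stood at 89.1, 75.4, 67.2, 58.2 and 53.9 in diabetic and 72.9, 82.7 and 91.2 in control libraries, −13.3 ± 5.02 points (limma, unadjusted p = 0.0108, adjusted p = 0.805). These Tnfrsf9 peaks lay nearest an annotated start upstream of its RefSeq starts. Its windows share peaks with Park7, so these values may belong in part or in whole to Park7. In LPS+IFN-γ BMDM, H3K27ac at Tnfsf13 stood at 59.3, 65.8 and 91.6 in diabetic and 53.0, 59.2 and 64.6 in control libraries, a difference of 12.2 ± 3.95 points (limma, unadjusted p = 0.00318, adjusted p = 0.989). Tnfsf10 stood at 15.8, 47.0 and 56.9 in diabetic and 13.5, 17.9 and 48.7 in control libraries, with a promoter peak in 5 of 6 and 2 of 6, a difference of 18.3 ± 6.33 (limma, unadjusted p = 0.00562, adjusted p = 0.989). Without the 3 libraries these differences were −10.7 for Tnfsf13b, −13.3 for Tnfrsf9, 12.4 for Tnfsf13 and 16.2 for Tnfsf10, none called.

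In HSC the lowest H3K27ac values were those of Tnfrsf17, with a peak in 3 of 6 control and 0 of 6 diabetic libraries (−9.77 ± 5.77 points; limma, unadjusted p = 0.0964), and Tnfsf13 (−6.15 ± 3.95, unadjusted p = 0.126), both at an adjusted p of 1.00. For H3K4me3, Tnfrsf18 (GITR) was 13.1 points lower in diabetic HSC (limma, unadjusted p = 0.0216) and 18.0 ± 5.83 points lower in diabetic unstimulated BMDM (unadjusted p = 0.00296, adjusted p = 1.00), where a peak was listed in 1 of 5 diabetic and 6 of 6 control libraries. Relt stood at 77.9, 84.7 and 98.7 in diabetic HSC and 71.0, 77.6 and 80.1 in control HSC, a difference of 10.9 ± 6.69 points (limma, unadjusted p = 0.108, adjusted p = 1.00). Tnfrsf10b, a TRAIL receptor with a death domain, differed by −14.1 ± 7.47 points in unstimulated BMDM (limma, unadjusted p = 0.0638, adjusted p = 1.00). In LPS+IFN-γ BMDM the counts were 6 of 6 diabetic and 3 of 6 control libraries for Tnfrsf18. Tnfsf4 (OX40L) differed there by 18.5 ± 6.78 points (limma, unadjusted p = 0.00907, adjusted p = 0.928) and Relt by 14.2 (0.0376, adjusted 0.951).

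Other genes of the pathway (adaptors, kinases, NF-κB and death effectors, and family members that the symbol rule leaves out; 33 tested) were read in the same fits. For H3K27ac, 6 were higher and 0 lower in control unstimulated BMDM than in control HSC (8.33% and 7.77% of all genes), among them Cd40, a receptor of the same superfamily on B cells and macrophages (23.2 ± 6.08 points, limma adjusted p = 0.00559), the NF-κB-inducing kinase Map3k14 (14.9 points, adjusted p = 0.0253) and the death adaptor Fadd (14.2 points, adjusted p = 0.0145). In diabetic mice 7 were higher and 1 lower (8.58% and 7.36% of all genes), with Fadd at 19.5 ± 4.40 points (limma, adjusted p = 0.0013), Cd40 at 18.8 (0.0354) and the adaptor Traf1 at 18.6 (0.00213), and with Sharpin, a subunit of the linear ubiquitin ligase, lower by −12.1 points. In diabetic BMDM 1 was higher with LPS+IFN-γ (1.33% of all genes), the necroptosis effector Mlkl (21.8 ± 5.21 points, limma adjusted p = 0.0133). The other 11 comparisons called 0 of the 33 (limma), with 1 to 6 of them at an unadjusted p under 0.05.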

How the data were processed

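Peak lists of H3K27ac and H3K4me3 ChIP-seq were analysed for 44 TNF superfamily genes. The 70 deposited lists were made by the authors, 1 per library against an input, in the narrowPeak format of MACS2, so depth behind each list is unknown. The submitters' processing notes name Trim Galore 0.3.3, cutadapt 1.8, FastQC 0.11.3, Bowtie2 2.2.6, Picard 2.18.14 and 2.19.2, bedtools 2.19.1 and MACS2 2.2.7.1, and GRCm38/mm10. The deposited columns hold an integer score, a fold enrichment at the summit, the −log10 p and the −log10 q, and the lowest −log10 q was 1.30. Per the study's methods each sample was 1 animal.

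Peaks were joined to GRCm38 start sites (GENCODE annotation, 93513 sites) within 1000 bp. Each gene's strongest −log10 p was turned into a percentile among 21938 genes. Genes occupied in 6 or more lists of a mark were fitted with limma 3.58.1 (R 4.3.3), 1 model per mark over its 6 groups with no covariate, and p-values were adjusted over all genes tested. The fit was tested on simulated H3K27ac data only, with the shift placed in diabetic HSC. Means and spreads for it were taken over all H3K27ac groups. Members given in full were the 6 with the largest called difference in each cell type or stimulation comparison, the 2 with the smallest p in each disease comparison, and those occupied in every list or in under 10; others are named with shorter values. The members and gene lists were chosen with earlier results of these data known. Replicate numbers were checked for pairing, which was not settled, and were not used as pairs in the main fit. Input samples have no list used here. Alternatives were ranking by fold, the top 10000 peaks, a −log10 q of at least 5, windows of 500 and 2000 bp, the summit within the window, normal scores, a filter of 1 list, the log2 peak number as a covariate, the replicate block, a fit of only the groups compared, leaving out libraries, and Fisher's exact test.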

Additional observations from a re-analysis of the deposited data

Results flagged for a closer look

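In 75 tests of the named members' groups with Dixon's test, 9 libraries lay far from the others of their group. Chance alone flags about 1 in 20 groups where values are normally distributed. Percentiles that gather at the floor are not, so 9 of 75 cannot be set against that rate. For H3K27ac, the percentile of Tnfsf10 was 15.8, the floor, in diabetic LPS+IFN-γ BMDM replicate 6, that of Tnfrsf26 was 79.8 in replicate 3 of the same group, and that of Tnfrsf1b was 71.7 in control unstimulated BMDM replicate 5, one of the libraries that stood apart. Tnfsf13b stood at 17.0, the floor, in control HSC replicate 5, and Fasl at 53.0 in diabetic HSC replicate 6. For H3K4me3, Tnfrsf18 stood at 33.0 in diabetic unstimulated BMDM replicate 1, the single library of its group with a promoter peak, and Tnfsf15 at 32.1 in control HSC replicate 1, likewise the single one. Tnfsf4 stood at 31.7 in control LPS+IFN-γ BMDM replicate 1 and Tnfsf11 at 64.0 in control unstimulated BMDM replicate 4. The causes were not tested.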

How the results depend on the processing

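The values are ranks of peak significance, and read depth behind the lists is unknown. Small shifts, and some of about 20 points, may not have been detectable. The median list occupied 36 members over its whole length and 12 among its 10000 strongest peaks. Ranking by fold gave 0 called members for LPS+IFN-γ in diabetic BMDM (3 by −log10 p), 8 and 7 for H3K27ac between cell types in control and diabetic mice (15 and 16), and 1 and 0 for H3K4me3 (4 and 1). The top 10000 peaks gave 1, 7 and 7, and 1 and 0, and Fisher's exact test on them 0, 3 and 5, and 0 and 0. The members called were not always the same. Members with fewer than 6 top 10000 lists of a mark were not tested in that fit. Among main H3K27ac calls these were Fasl, Tnfsf10, Edar and Tnfrsf18 (0 lists), Tnfrsf26 and Tnfsf11 (1), Eda and Tnfrsf25 (2) and Tnfsf13b (4). For H3K4me3 they were Tnfsf8 and Tnfsf15 (4 each). Fisher's exact test likewise used only genes able to reach p under 0.05. Of the H3K27ac calls between cell types in control and diabetic mice, 7 and 6 by fold were also called in the main fit. The same held for 7 and 5 in the top 10000 and for 3 and 3 by Fisher's exact test. Normal scores gave 10 for H3K27ac in diabetic mice and, for H3K4me3, 1 in control and 0 in diabetic mice, and the peak number as a covariate 0 in both. A fit of only the groups compared gave 1 member for LPS+IFN-γ in diabetic BMDM and 0 for H3K4me3 in diabetic mice, and so did the stricter q and the filter of 1 list for the latter (0). Leaving out the same-numbered 3 control BMDM libraries, chosen after seeing the data, gave 0 for H3K4me3 in control mice. Leaving out each library in turn gave 1 to 4, 10 to 16, 12 to 16, 0 to 5 and 0 to 1 members in these 5 comparisons in the same order, and 0 in the other 9. The cause of these changes was not tested.

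Of 370 values of named members with 1 library left out, 333 kept direction and side of the threshold and 37 lost the call. Of 353 under other settings, 321 kept both, 31 lost the call and 1 reversed. The reversal was Tnfrsf17 in HSC for H3K27ac by disease, at 3.17 points with a 2000 bp window and not called. These totals include the named members of the disease comparisons, which were not called and so had no call to lose. The totals therefore overstate how well calls held. Relt and Tnfrsf11a for H3K27ac between cell types kept direction and call in every setting tried. Over all genes, LPS+IFN-γ in diabetic BMDM called 491 genes, 129 by fold (78 higher), 223 in the top 10000 (77 higher), 132 with only the groups compared, 0 by Fisher's exact test, and 168 to 830 with 1 library left out. H3K27ac between cell types called 2709 and 2682 genes, 1666 and 1541 by fold, 1553 and 1561 in the top 10000, and 401 and 519 by Fisher's exact test. H3K4me3 called 914 genes in control mice, 211 by fold, 335 in the top 10000, 4 with the covariate, 65 without the same-numbered libraries and 0 by Fisher's exact test. In diabetic mice it called 131, 6 by fold, 12 in the top 10000, 55 at the stricter q, 61 with 500 bp, 36 with normal scores, 63 with the filter of 1 list, 14 with the covariate, 49 with only the groups compared and 0 by Fisher's exact test.

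The replicate block gave 3, 15, 15, 5 and 1 called members against 3, 15, 16, 4 and 1, 0 in the other 9 comparisons, and 245 genes against 491 for LPS+IFN-γ in diabetic BMDM. Same-numbered samples correlated between −0.294 and 0.364 in their deviations, and in no comparison were all over 0.1, so the numbers were not taken as pairs. In diabetic BMDM with and without LPS+IFN-γ, the H3K27ac median was 0.116 for same-numbered samples and −0.0401 for others. For H3K4me3 these medians were 0.170 and −0.0859. For diabetic unstimulated BMDM and HSC the H3K27ac medians were −0.0559 and 0.0156. Pairing was therefore not settled.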

Other observations

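Presence among the 10000 strongest H3K27ac peaks is given for 3 members, with no test beyond Fisher's exact test, whose counts are given above. Tnfrsf14 (HVEM) was among them in 6 of 6 HSC libraries from diabetic mice, 0 of 5 unstimulated BMDM libraries and 4 of 6 stimulated ones, and in 5, 2 and 4 of 6 libraries of the matching control groups. Tnfsf9 (4-1BBL) was among them in 0 of 12 HSC libraries, in 5 of 6 control and 4 of 5 diabetic unstimulated BMDM libraries, and in 5 of 6 and 4 of 6 with LPS+IFN-γ. Tnfsf13 (APRIL) was among them in 3 of 6 control and 0 of 6 diabetic HSC libraries, and in 22 of all 35 H3K27ac lists. Fisher's exact test called Tnfsf13 and Tnfrsf14 between diabetic unstimulated BMDM and diabetic HSC, and called no member by disease.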
